A study of Mus musculus with 11 samples.

Results

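The collagen genes of the mouse were followed across mammary tumours with and without an extra Sirt6 allele. Members were all genes whose annotated symbol has the form Col, number, a, number, without Col17a1, each read by its probe of highest mean intensity, and 40 such genes were found among 19057 named genes. Col6a3, Col12a1 and Col20a1 were not analysed here. The 11 tumours came from female mice aged 12 weeks and were hybridised to 1 array each. PyMT/SIRT6 tumours (n = 5) carried the PyMT transgene, which encodes the middle T oncoprotein of mouse polyomavirus, together with a Sirt6 allele on a bacterial artificial chromosome that adds SIRT6, a chromatin deacylase. PyMT tumours (n = 6) carried the PyMT transgene without that allele, so every tumour shared the oncogene and no normal mammary tissue was set beside them. The labels name neither the promoter of the transgene nor the strain background. They leave unsaid whether any mouse gave more than 1 tumour, and the p-values below reflect spread among tumours, which may in part be technical. Each sample was a whole piece of tumour, in which fewer cells of a type and less RNA per cell cannot be told apart.

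Collagens are triple helices wound from 3 alpha chains, and each Col gene encodes 1 chain. Fibrillar collagens such as types I, III and V form the banded fibres of the interstitial matrix and are made mainly by fibroblasts. Type IV collagen forms the sheet-like network of basement membranes under epithelium and around vessels and fat cells, type VI forms beaded filaments, and fibril-associated collagens decorate the surface of fibres. In mammary tumours the fibrous stroma and the basement membrane around tumour nests are separate compartments made by partly different cells.

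Type IV chains are encoded by genes that lie head to head in pairs and share the stretch between them. The RefSeq promoter windows (GRCm38.p6, 250 bases before to 50 after the start) of Col4a1 on the minus strand at chr8:11312777-11313076 and Col4a2 on the plus strand at chr8:11312555-11312854 are shown because this pair moved together most tightly among the pairs tested. Capitals mark the 78 bases that both windows hold, read from opposite strands.
Col4a1: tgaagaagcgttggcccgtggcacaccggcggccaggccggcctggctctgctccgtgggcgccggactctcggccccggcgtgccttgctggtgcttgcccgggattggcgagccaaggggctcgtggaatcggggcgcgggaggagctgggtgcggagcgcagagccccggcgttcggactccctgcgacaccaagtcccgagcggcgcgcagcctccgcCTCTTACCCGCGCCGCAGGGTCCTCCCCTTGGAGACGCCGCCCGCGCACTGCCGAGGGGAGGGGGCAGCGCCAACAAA
Col4a2: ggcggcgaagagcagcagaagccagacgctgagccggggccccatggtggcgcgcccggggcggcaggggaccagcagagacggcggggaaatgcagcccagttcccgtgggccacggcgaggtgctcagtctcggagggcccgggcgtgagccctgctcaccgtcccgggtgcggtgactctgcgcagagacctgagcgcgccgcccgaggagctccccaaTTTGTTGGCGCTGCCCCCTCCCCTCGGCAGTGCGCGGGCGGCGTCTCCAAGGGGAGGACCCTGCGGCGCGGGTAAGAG

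The windows of Col1a2 on the plus strand at chr6:4505368-4505667 and Col5a1 on the plus strand at chr2:27886175-27886474 are shown as fibrillar members that varied with Col1a1. Capitals mark every CCAAT, the core letters read by the factor named for it, as well as every GGGCGG, the core letters of the GC box read by Sp1, on either strand.
Col1a2: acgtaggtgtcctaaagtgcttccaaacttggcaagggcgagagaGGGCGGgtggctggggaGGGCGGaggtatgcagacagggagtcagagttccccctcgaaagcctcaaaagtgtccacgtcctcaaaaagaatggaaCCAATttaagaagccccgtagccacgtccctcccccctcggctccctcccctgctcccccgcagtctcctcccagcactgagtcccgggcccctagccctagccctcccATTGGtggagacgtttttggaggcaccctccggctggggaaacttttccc
Col5a1: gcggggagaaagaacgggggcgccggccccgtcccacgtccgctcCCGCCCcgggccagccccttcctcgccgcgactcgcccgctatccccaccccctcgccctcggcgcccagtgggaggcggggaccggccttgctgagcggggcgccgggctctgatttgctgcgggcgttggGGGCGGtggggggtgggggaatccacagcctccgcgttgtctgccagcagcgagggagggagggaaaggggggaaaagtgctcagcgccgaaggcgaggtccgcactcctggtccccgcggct
The Col1a2 window held 2 CCAAT and 2 GGGCGG matches, and the Col5a1 window held 2 GGGCGG and 0 CCAAT matches. Of the 22 windows listed for 19 members above background, 15 held GGGCGG (68.2%) and 8 held CCAAT (36.4%). Over all 32851 windows of that length in the table, 35.7% held GGGCGG and 37.4% held CCAAT. The letters TATAAA, the core of a TATA box, was in 2 of the 22 windows, those of Col11a2 and Col3a1, and in 13.6% of all windows. The GC content was 74% in the Col4a1 window, 73.7% in the Col4a2 window, 75% in the Col5a1 window and 61% in the Col1a2 window, against a median of 52.7% over all windows. These matches describe letters only, and binding was not measured.

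Values are deposited probe intensities, given here as log2. Sirt6 itself had intensities of 291 to 399 in PyMT/SIRT6 tumours, against 199 to 236 in PyMT tumours, a difference of 0.61 ± 0.09 (SE, log2; limma adjusted p = 0.0577, exact two-sided permutation p = 0.00216, the smallest that 5 against 6 arrays allow). The groups did not overlap. Of the 14726 features tested 2 passed an adjusted p of 0.05, which is 0.0136%. Skeletal muscle markers stood apart on 4 arrays, with list means above log2 9 in PyMT/SIRT6 replicates 1, 4 and 5 (9.71, 10.52 and 11.27) and PyMT replicate 5 (11.58), while the other 7 arrays lay between 7.40 and 8.21. Results are therefore also given without these 4 arrays, which leaves 2 PyMT/SIRT6 and 5 PyMT tumours. Probes of 1071 olfactory receptor genes, which a mammary tumour should hardly use, had a 95th percentile of log2 7.34, and this served as a gauge of background. No background subtraction was visible in the intensities (lowest value 116.7), and for a dim probe the fold in RNA would be larger than the fold printed.

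Of the 40 collagen genes 26 passed the filter on mean intensity (log2 7.31) and 22 lay above the olfactory receptor gauge. Col5a2, Col11a1, Col5a3 and Col25a1 passed the filter but not the gauge. The 14 below the filter were the fibrillar Col24a1 and Col27a1, the basement membrane chain Col4a3, the type VI chains Col6a4, Col6a5 and Col6a6, the fibril-associated Col9a3, Col19a1 and Col22a1, and Col10a1, Col13a1, Col23a1, Col26a1 and Col28a1. Their means ran from log2 7.14 to 7.30 and their genotype differences from −0.07 to 0.04.

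No collagen gene differed between the genotypes past the adjusted threshold. In limma, 0 of the 26 tested members were called, with adjusted p from 0.983 to 0.996, and 0.0136% of all features were called. At an unadjusted p of 0.05, 2 of 26 passed, Col11a2 and Col16a1, where 4.45% of all features did (655 of 14726), and by the exact permutation test only Col11a2 did. Not one of the 40 members had groups that did not overlap, a pattern that 0.489% of all features showed. Among the tested members 12 were higher and 14 lower in PyMT/SIRT6 tumours, with a median difference of −0.02 (log2), against −0.01 over all tested features, of which 46.9% were higher. The SD between tumours of a genotype had a median of 0.16 over the tested members and 0.13 over all tested features.

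**Figure D1:**
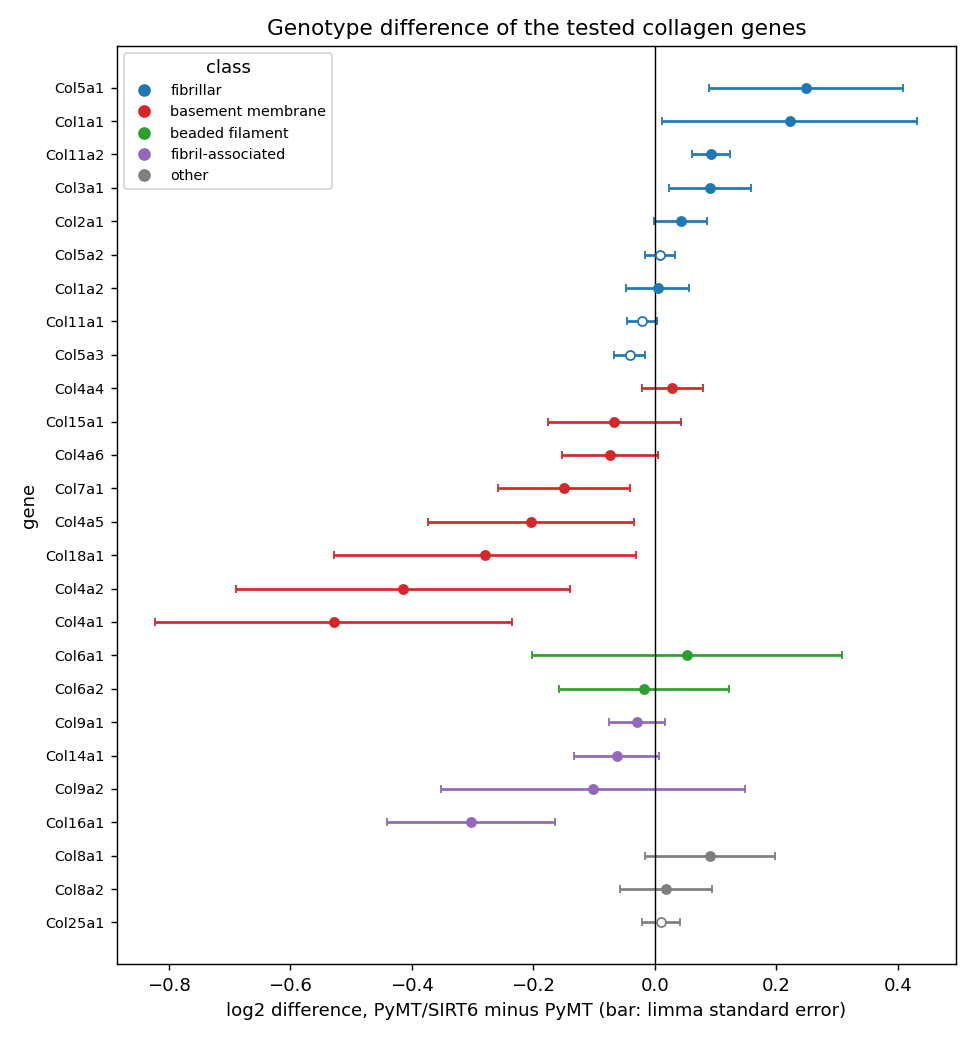
Difference in log2 intensity, PyMT/SIRT6 (n = 5) minus PyMT (n = 6), on the horizontal axis for each of the 26 tested collagen genes, coloured by class, with bars for limma's standard error and open circles for members below the olfactory receptor gauge. Basement membrane chains extend to the left as far as −0.53 (Col4a1), the fibrillar chains reach 0.25 (Col5a1), and no gene passed the adjusted threshold.

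Among the fibrillar collagens, 7 of the 9 tested members were higher in PyMT/SIRT6 tumours and 2 were lower, with a median difference of 0.04, and 0 were called. All 6 members above the gauge (Col1a1, Col1a2, Col2a1, Col3a1, Col5a1 and Col11a2) had a positive difference, with a median of 0.09. The mean over the tested fibrillar members per array was 7.71 ± 0.11 (SD) in PyMT/SIRT6 tumours and 7.64 ± 0.08 in PyMT tumours. That difference of 0.07 is within the SD of either group, and it was 0.13 without the 4 arrays high in muscle markers.

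Col1a1, the main chain of type I collagen, had log2 intensities of 8.05, 8.95, 8.72, 8.96 and 8.59 in PyMT/SIRT6 tumours 1 to 5. In PyMT tumours its lowest, median and highest values were 7.92, 8.36 and 9.15. Both the highest and the lowest tumour were PyMT tumours, 2.34-fold apart, and the groups overlapped. The difference was 0.22 ± 0.21 (SE; limma adjusted p = 0.983, exact permutation p = 0.37). It ran from 0.12 (without PyMT replicate 3) to 0.37 (without PyMT/SIRT6 replicate 1) when single arrays were left out, and was 0.55 without the 4 arrays high in muscle markers.

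Col5a1, a chain of type V collagen, which sits in the core of type I fibres and sets their width, read 8.47, 8.86, 9.02, 9.45 and 8.87 in PyMT/SIRT6 tumours. The PyMT tumours ran from 8.42 over a median of 8.75 to 8.95. Its difference of 0.25 ± 0.16 was the largest positive one among the tested members (limma adjusted p = 0.983, exact permutation p = 0.169). It lay above the PyMT mean in 4 of 5 PyMT/SIRT6 tumours, and replicate 4, one of the arrays high in muscle markers, was the highest of all. Without that array the difference was 0.12, and without all 4 arrays high in muscle markers it was 0.28. With the fibroblast marker mean as a covariate it was 0.11.

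Col3a1, whose homotrimers join type I in soft tissue fibres, read 7.38, 7.42, 7.54, 7.75 and 7.51 in PyMT/SIRT6 tumours, against 7.28, 7.45 and 7.58 (lowest, median, highest) in PyMT tumours. The groups overlapped, and the difference was 0.09 ± 0.07 (limma adjusted p = 0.983, exact permutation p = 0.277), and it was 0.03 without PyMT/SIRT6 replicate 4. Col1a2, the second chain of type I collagen, read 7.30, 7.54, 7.63, 7.54 and 7.43 in PyMT/SIRT6 tumours and 7.42, 7.48 and 7.54 in PyMT tumours, and its means were equal to 2 decimals (7.49 and 7.49). The probes of Col3a1 and Col1a2 read close to the gauge, with group means of at most 7.52, so they leave little room for a lower value to show.

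Col11a2, a chain of type XI collagen best known from cartilage, had the smallest unadjusted p of the family (0.0103, limma adjusted p = 0.983). It read 7.48, 7.40, 7.44, 7.43 and 7.46 in PyMT/SIRT6 tumours, and 7.25, 7.36 and 7.40 in PyMT tumours. All 5 PyMT/SIRT6 tumours were above the PyMT mean, though the ranges met at 7.40. The difference was 0.09 ± 0.03, or 1.07-fold, on a probe just above the gauge (exact permutation p = 0.00649). The second Col11a2 probe, below the gauge, did not follow it (r = −0.20 over the tumours), and with the mean of both probes the difference was 0.0446 (unadjusted p = 0.0910, limma adjusted p = 0.983).

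The remaining fibrillar members differed by at most 0.04 in size. Col2a1, the cartilage fibril collagen, read 7.38, 7.49, 7.63, 7.39 and 7.40 in PyMT/SIRT6 tumours, against 7.38, 7.42 and 7.45 in PyMT tumours, so PyMT/SIRT6 replicate 3 alone stood above the rest by more than 0.1. Col5a3, the minor type V chain, read 7.25, 7.34, 7.31, 7.32 and 7.28 in PyMT/SIRT6 tumours and 7.29, 7.35 and 7.41 in PyMT tumours. Col5a2 and Col11a1, at or below the gauge, had differences of 0.01 ± 0.03 and −0.02 ± 0.02.

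**Figure D2:**
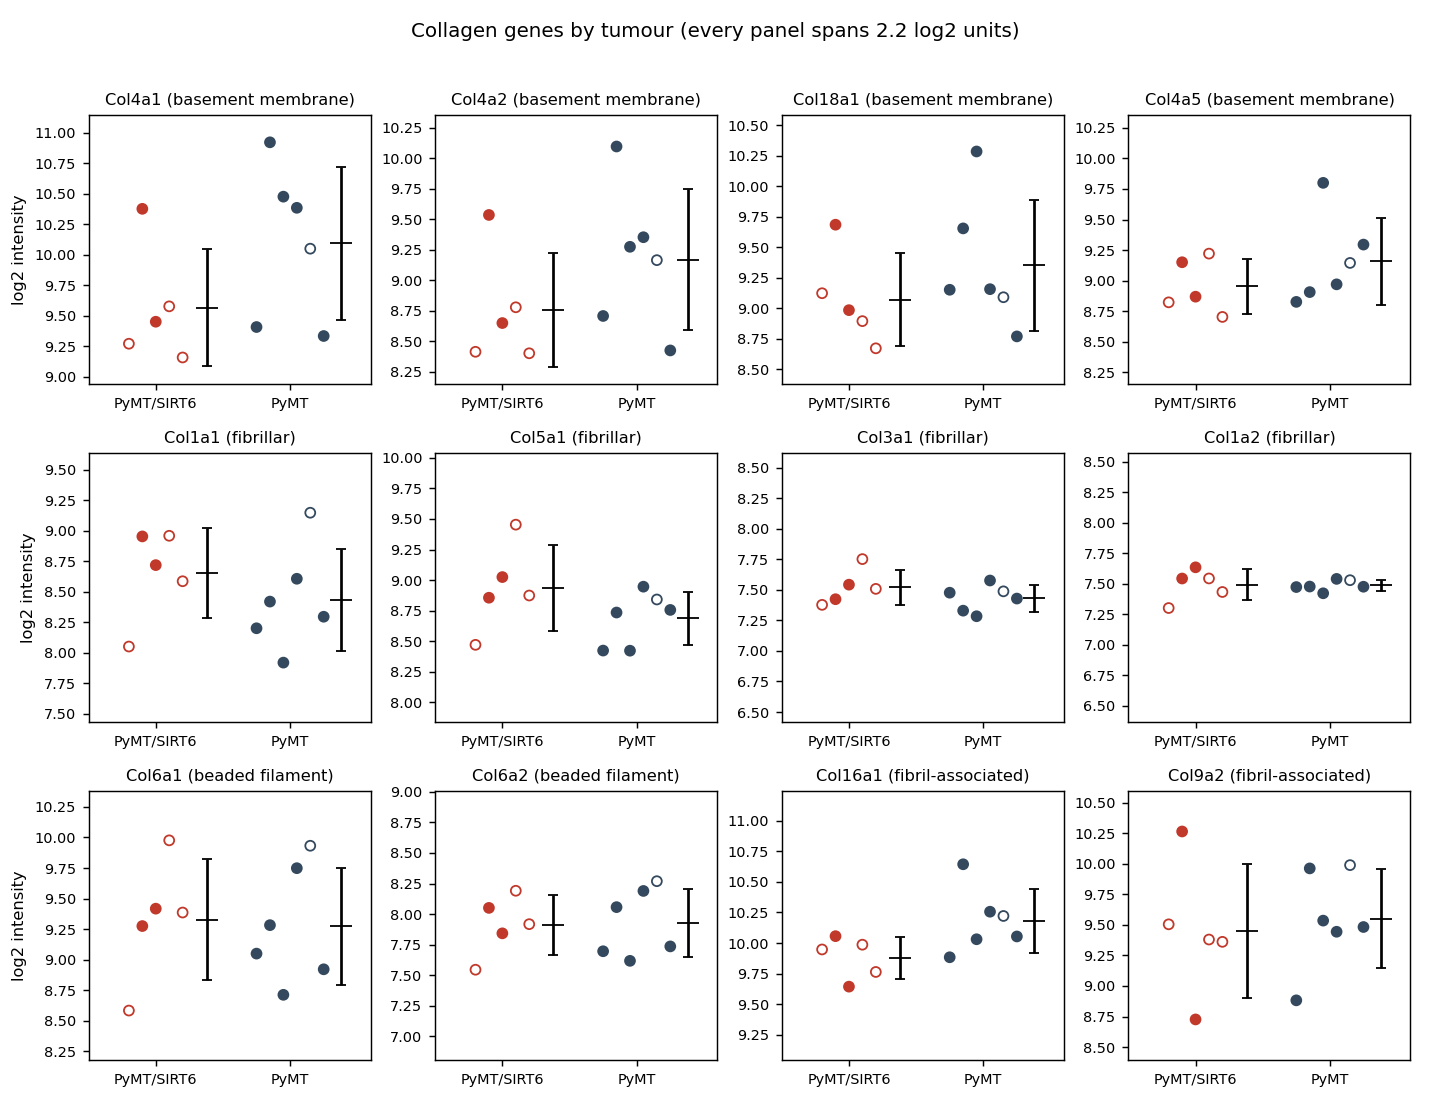
Log2 intensity (vertical axis, 2.2 log2 units in every panel) of 12 collagen genes in each tumour, PyMT/SIRT6 (red) left of PyMT (blue), with a bar for the group mean ± SD and open circles for the 4 arrays high in skeletal muscle markers. Col4a1 and Col4a2 spread over more than 1.6 log2 units and the groups overlap in every panel.

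The basement membrane collagens were lower in PyMT/SIRT6 tumours for 7 of the 8 tested members and higher for 1, with a median difference of −0.18, and 0 were called. Their mean per array was 8.36 ± 0.22 (SD; 8.12 to 8.71) in PyMT/SIRT6 tumours and 8.57 ± 0.23 (8.28 to 8.86) in PyMT tumours. The difference of −0.21 was about as large as the SD within a genotype. Without the 4 arrays high in muscle markers it was −0.07.

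Col4a1, which with Col4a2 makes up the common type IV network, read 9.27, 10.38, 9.45, 9.58 and 9.16 in PyMT/SIRT6 tumours. In PyMT tumours the lowest, median and highest values were 9.33, 10.22 and 10.92. The tumours split unevenly within each genotype, since PyMT/SIRT6 replicate 2 exceeded the PyMT median while PyMT replicates 1 and 6 lay among the other PyMT/SIRT6 tumours. The difference was −0.53 ± 0.29 (SE; limma adjusted p = 0.983, exact permutation p = 0.152). It stayed between −0.73 and −0.36 when single arrays were left out. Without the 4 arrays high in muscle markers, which leaves PyMT/SIRT6 replicates 2 and 3, it was −0.19. With the skeletal muscle marker mean as a covariate over all 11 arrays it was −0.46.

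Col4a2 followed the same order almost exactly, with 8.41, 9.53, 8.65, 8.78 and 8.40 in PyMT/SIRT6 tumours, against 8.43, 9.22 and 10.09 (lowest, median, highest) in PyMT tumours. Its difference was −0.41 ± 0.27 (limma adjusted p = 0.983, exact permutation p = 0.227), and −0.23 without PyMT replicate 2. It was −0.08 without the arrays high in muscle markers and −0.35 with the skeletal muscle covariate. Across all 11 tumours Col4a1 spanned 3.39-fold and Col4a2 3.23-fold.

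Col18a1, the basement membrane collagen whose C-terminal fragment is endostatin, read 9.12, 9.68, 8.99, 8.90 and 8.67 in PyMT/SIRT6 tumours. In PyMT tumours it read 8.77, 9.15 and 10.28, where the highest value was PyMT replicate 3. The difference was −0.28 ± 0.25 (exact permutation p = 0.366) over a 3.05-fold range. Without PyMT replicate 3 it was −0.09, without the arrays high in muscle markers −0.07, and with the fibroblast marker mean as a covariate −0.07. Col4a5, a chain of the other type IV networks, read 8.82, 9.15, 8.87, 9.22 and 8.70 in PyMT/SIRT6 tumours, against 8.83, 9.06 and 9.80 in PyMT tumours, a difference of −0.20 ± 0.17. PyMT replicate 3 was again the highest, and without it the difference was −0.08.

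Col7a1, the anchoring fibril collagen that ties epithelium to the stroma, read 7.94, 7.60, 7.46, 7.89 and 7.55 in PyMT/SIRT6 tumours and 7.54, 7.84 and 8.06 in PyMT tumours, a difference of −0.15 ± 0.11. It was −0.09 without PyMT/SIRT6 replicate 3, −0.07 with the mean of its probes and −0.29 without the arrays high in muscle markers. Col4a6, which pairs with Col4a5, ran from 7.40 to 7.89 in PyMT/SIRT6 tumours and from 7.57 to 7.78 in PyMT tumours. Col15a1, a bridge between the basement membrane and the fibres below, ran from 7.70 to 7.93 in PyMT/SIRT6 tumours and from 7.66 to 8.17 in PyMT tumours. Col4a4, a chain of the kidney glomerular network, differed by 0.03 ± 0.05 and was the member with a positive difference.

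Type VI collagen showed next to no mean difference and a wide spread between tumours. Col6a1 read 8.58, 9.28, 9.42, 9.98 and 9.39 in PyMT/SIRT6 tumours, against 8.71, 9.17 and 9.93 (lowest, median, highest) in PyMT tumours. Its difference was 0.05 ± 0.26 (limma adjusted p = 0.989, exact permutation p = 0.851), over a 2.63-fold range. Col6a2 read 7.54, 8.05, 7.84, 8.19 and 7.92 in PyMT/SIRT6 tumours and 7.62, 7.90 and 8.27 in PyMT tumours, a difference of −0.02 ± 0.14. For both chains the lowest tumour was PyMT/SIRT6 replicate 1, which is high in muscle markers. The highest were PyMT/SIRT6 replicate 4 and PyMT replicate 5, also high in muscle markers, and PyMT replicate 4, which is not.

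All 4 tested fibril-associated collagens had a negative difference by the probe chosen, with a median of −0.08, and 0 were called. Their mean per array was 8.62 ± 0.18 (SD) in PyMT/SIRT6 tumours and 8.75 ± 0.19 in PyMT tumours. Col16a1, a collagen found beside small fibres, read 9.95, 10.06, 9.64, 9.99 and 9.76 in PyMT/SIRT6 tumours, against 9.88, 10.14 and 10.64 in PyMT tumours. All 5 PyMT/SIRT6 tumours were below the PyMT mean, with overlap. The difference was −0.30 ± 0.14 (unadjusted p = 0.0473, limma adjusted p = 0.983, exact permutation p = 0.0519), and −0.32 without the arrays high in muscle markers.

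Col9a2, a chain of the collagen that coats cartilage fibres, read 9.50, 10.26, 8.73, 9.38 and 9.36 in PyMT/SIRT6 tumours and 8.88, 9.51 and 9.99 in PyMT tumours. The 2 extremes, 2.90-fold apart, were both PyMT/SIRT6 tumours, and the difference was −0.10 ± 0.25. Col14a1, which binds decorin and collagen fibres, read 7.40, 7.56, 7.54, 7.65 and 7.47 in PyMT/SIRT6 tumours, against 7.39, 7.57 and 7.80 in PyMT tumours. Its difference was −0.06 by this probe and 0.05 by the second probe above the gauge. Col9a1 differed by −0.03 ± 0.05.

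Of the other collagens, Col8a1, a short-chain network collagen of vessel walls and the eye, read 7.83, 8.34, 8.41, 8.26 and 8.16 in PyMT/SIRT6 tumours and 7.88, 8.12 and 8.24 in PyMT tumours, a difference of 0.09 ± 0.11. Its partner Col8a2 read 7.44, 7.89, 7.71, 7.65 and 7.53 in PyMT/SIRT6 tumours, against 7.49, 7.62 and 7.77 in PyMT tumours. Col25a1, a membrane collagen of neurons, stayed at background with 7.43, 7.37, 7.27, 7.30 and 7.30 in PyMT/SIRT6 tumours and 7.26, 7.34 and 7.38 in PyMT tumours.

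A further probe above the gauge existed for 9 member genes and gave a check on the probe chosen. It followed the chosen probe across the 11 tumours closely for Col6a1 (r = 0.98), Col4a6 (0.94), Col18a1 (0.92), Col4a5 (0.86) and Col2a1 (0.81), and less so for Col8a1 (0.61) and Col14a1 (0.53). For Col9a1 (r = 0.11) and Col6a2 (0.07) the probes disagreed, so the values of these 2 genes depend on the probe.

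Partner chains of type IV and of type VI collagen co-varied between tumours. Of 11 gene pairs compared over the 11 tumours, 4 passed an adjusted p of 0.05 by permutation of Pearson's r. The pairs were chosen with earlier results of these data known. The share of all gene pairs that would pass was not counted, so the 4 have no background to be set against. Col4a1 and Col4a2 correlated at r = 0.98 (permutation p = 1e-05, the smallest the 100000 resamples can give, adjusted p = 0.00011; Spearman's rho = 0.95, adjusted p = 0.00022). Without the 2 tumours farthest from the Col4a1 median r was 0.98. Within the 6 PyMT tumours r was 0.96, and among the 7 tumours low in muscle markers it was 0.97. The PyMT/SIRT6 group, with 5 tumours, is too small for a correlation of its own.

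The type VI chains Col6a1 and Col6a2 correlated at r = 0.93 (permutation p = 5e-05, adjusted p = 0.000275; rho = 0.90, adjusted p = 0.00242), with r = 0.91 without the 2 tumours farthest from the Col6a1 median and r = 0.96 within PyMT. Among the 7 tumours low in muscle markers r was 0.87 (adjusted permutation p = 0.0557). In the RefSeq table both genes lie on chromosome 10. The second Col6a2 probe did not follow the first, so this relation holds for the probe chosen.

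The type I chains Col1a1 and Col1a2 correlated at r = 0.70 (permutation p = 0.0133, adjusted p = 0.0403; rho = 0.82, adjusted p = 0.0117), with r = 0.74 without the 2 tumours farthest from the Col1a1 median. Leaving out single tumours kept r between 0.64 and 0.75, but the adjusted p stayed under 0.05 in only 3 of 11 cases, without PyMT/SIRT6 replicate 3, PyMT/SIRT6 replicate 5 or PyMT replicate 5. Without PyMT/SIRT6 replicate 1, which had the lowest Col1a2, the adjusted permutation p was 0.115. Col1a1 and Col3a1 gave r = 0.62 (adjusted permutation p = 0.0809).

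Col4a1 also correlated with Cdh5, which encodes the endothelial adhesion protein VE-cadherin (r = 0.73, permutation p = 0.0146, adjusted p = 0.0403), though by rho the pair did not pass (0.67, adjusted permutation p = 0.0744). Centred within each genotype, r was 0.64 (adjusted permutation p = 0.0876), within PyMT tumours it was 0.40, and the adjusted p stayed under 0.05 in 2 of 11 cases with a tumour left out, PyMT replicate 1 or 5. Nid1, the basement membrane linker nidogen, did not pass with Col4a1 (r = 0.19, adjusted permutation p = 0.77).

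Col4a1 and Col1a1, the pair tested between type IV and type I collagen, did not pass. Their r was 0.08 (adjusted permutation p = 0.886; rho = 0.14). PyMT replicates 2 and 3 had the highest Col4a1 values (10.92 and 10.48) beside Col1a1 values of 8.42 and 7.92, and without these 2 tumours r was 0.59 (permutation p = 0.0989). Col1a1 did not pass with Lox, the crosslinking lysyl oxidase (r = 0.55, adjusted permutation p = 0.122), with Pdgfra, a fibroblast receptor (r = 0.56, adjusted permutation p = 0.122), or with Serpinh1, the collagen chaperone Hsp47 (r = −0.15, adjusted permutation p = 0.796). Col5a1 and Col5a2 gave r = −0.03 (adjusted permutation p = 0.938) with a Col5a2 probe at background.

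**Figure D3:**
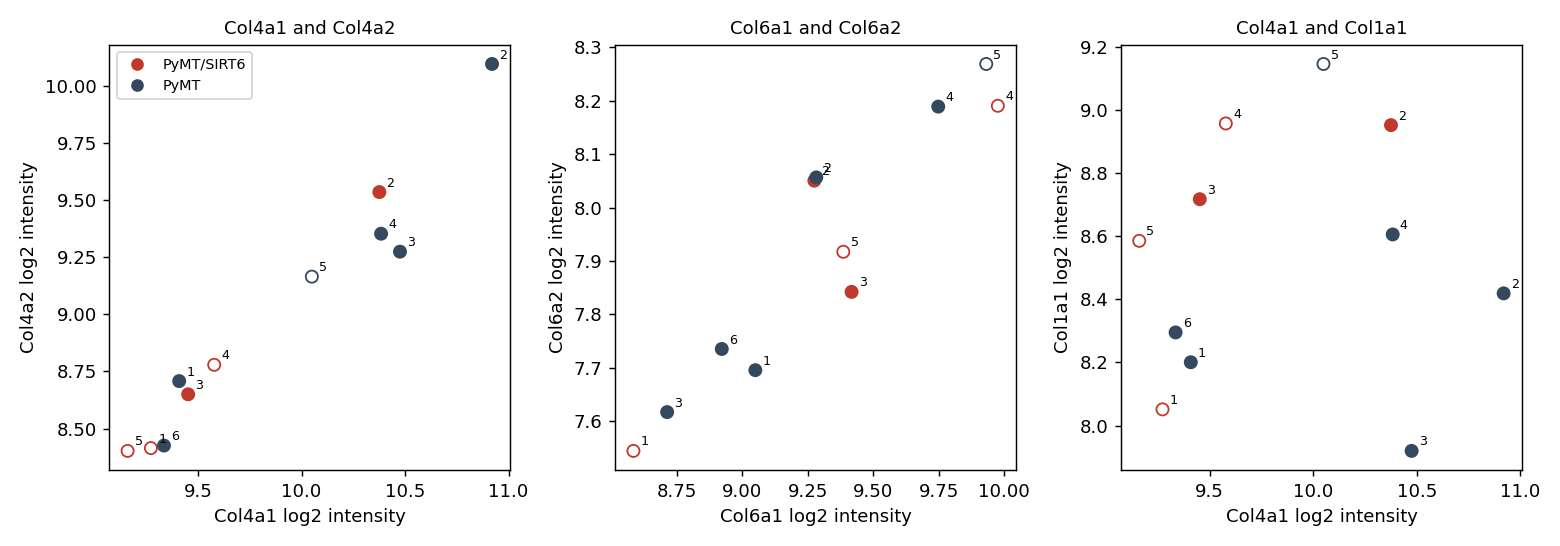
Log2 intensities of 3 gene pairs over the 11 tumours, PyMT/SIRT6 in red and PyMT in blue, numbered by replicate, with open circles for the 4 arrays high in skeletal muscle markers. Col4a1 and Col4a2 (r = 0.98) and Col6a1 and Col6a2 (r = 0.93) lie along a line, and Col4a1 and Col1a1 (r = 0.08) do not.

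Over the 22 members above the gauge the 231 pairwise correlations had a median of 0.17, against 0.00 over all pairs of tested features above the gauge. Those pairs ran from −0.99 to 0.9996, and how often they reach the values below was not counted. The correlations given here are descriptions over 11 tumours that share each array's total and its mix of cells. Fibrillar members correlated with each other at a median of 0.46 (15 pairs) and with the type VI chains at 0.66 (12 pairs). Col1a1 reached 0.88 with Col6a1 and 0.87 with Col6a2, and Col5a1 reached 0.84 with Col3a1. Col8a1, outside the fibrillar class, followed Col1a2 at 0.85.

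Basement membrane members correlated among themselves at a median of 0.27 (28 pairs) and with the fibril-associated members at 0.40 (32 pairs). Col16a1 followed Col4a2 at 0.81 and Col4a1 at 0.79, and Col18a1 followed Col4a1 at 0.77. Between fibrillar and basement membrane members the median was −0.08 (48 pairs), running from −0.65 for Col18a1 with Col3a1 to 0.75 for Col4a4 with Col2a1. Col15a1 crossed the classes, with r = 0.85 to Col14a1 and 0.84 to Col6a2.

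**Figure D4:**
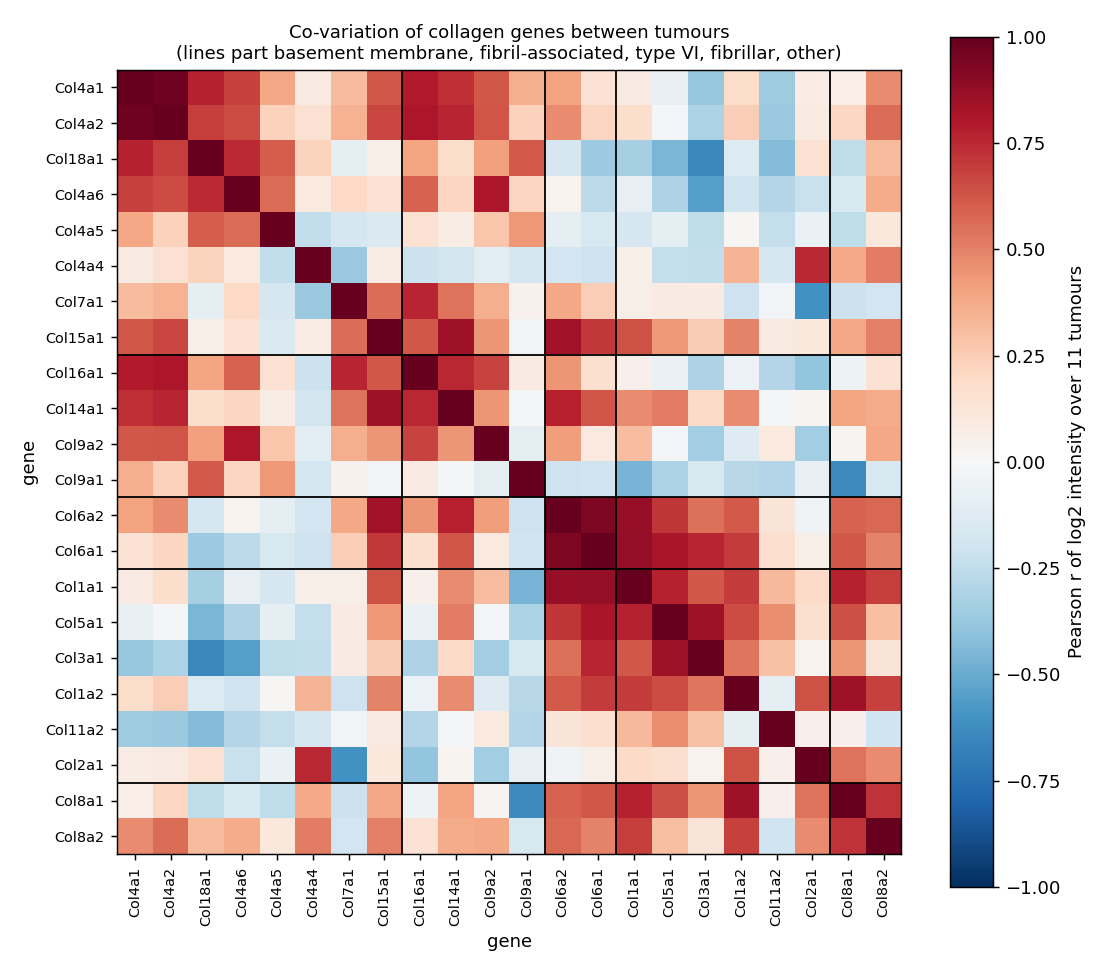
Pearson's r of log2 intensity over 11 tumours for the 22 collagen genes above the olfactory receptor gauge, from −1 (blue) to 1 (red), with lines between classes. Col1a1, Col5a1, Col3a1, Col1a2 and the type VI chains form a red block towards the lower right, from which Col11a2 and Col2a1 stand out with paler fields (Col2a1 with Col6a1 at 0.06). Col4a1, Col4a2, Col18a1 and Col4a6 form another at the upper left. Col16a1, apart from that block, is red with Col4a1 (0.79) and Col4a2 (0.81). The fields between fibrillar and basement membrane members are mixed (median −0.08).

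Outside the family, the genes whose pattern was most like a collagen mean were ranked among 10851 genes by r over the 11 tumours. For the mean of the tested fibrillar members they were Mfap4, a microfibril-associated glycoprotein (r = 0.93), Lrrc15 (0.91), Tmem52 (0.89), Loxl1, a lysyl oxidase-like crosslinking enzyme (0.89), Bicd2 (0.89), Apbb1ip (0.88), Egln2 (0.88) and Tbc1d2b (0.87). For the mean of Col4a1 and Col4a2 they were Myo7a (0.94), Gna14 (0.93), Cdc23 (0.92), Fubp3 (0.92), Atp2a2 (0.91), Zfp46 (0.91), Capn6 (0.91) and Hlcs (0.91). Ranking so many genes on 11 tumours gives high values by selection, so these are given as a description.

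Genes that build, join or hold collagen gave 0 calls in each list. Of 16 tested genes of collagen modification and folding, 3 were higher and 13 lower in PyMT/SIRT6 tumours, with a median of −0.07 (−0.10 without the arrays high in muscle markers). Within it Serpinh1 averaged 12.27 ± 0.29 (SD) in PyMT/SIRT6 tumours and 12.32 ± 0.22 in PyMT tumours. Of 6 genes of propeptide processing and crosslinking, 3 were higher and 3 lower (median 0.01). Loxl4, with group means of 7.28 and 7.36 close to the gauge, was at −0.08 ± 0.03 (SE). The brighter Loxl1 and Lox were at 0.32 ± 0.24 and 0.26 ± 0.20. Of 6 collagen receptors 4 were higher and 2 lower (median 0.04, and 0.09 without those arrays), with Itga11, the collagen-binding integrin chain of fibroblasts, at 0.15 ± 0.06.

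Matrix proteins that bind collagen were counted in separate lists for interstitium and basement membrane. Of 17 collagen-binding interstitial matrix genes 13 were higher and 4 lower (median 0.09), with Mfap5 at 0.51 ± 0.27 (SE), Ogn at 0.34 ± 0.19 and Mfap4 at 0.26 ± 0.13. Of 11 basement membrane partners 2 were higher and 9 lower (median −0.13, and −0.04 without the arrays high in muscle markers). Among them were the laminin chains Lamc1 at −0.30 ± 0.15 and Lama1 at −0.23 ± 0.11. Peroxidasin, Pxdn, which crosslinks type IV collagen, was at −0.13 ± 0.06. Lamc1 had r = 0.86 with Col4a1 over the tumours and the list mean had r = 0.82. The medians compare with −0.01 over all tested features, and all adjusted p-values of the genes named here were 0.983 (limma).

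Markers of the cells that could carry collagen RNA moved beside these values, and their part in the differences was not tested. Fibroblast markers other than collagens were higher for 9 of 10 genes (median 0.16), with Mfap5 (above), Lum at 0.38 ± 0.25 (SE) and Dpt at 0.35 ± 0.16. Without the arrays high in muscle markers 6 were higher and 4 lower (median 0.05). Dcn, Lum, Fbln1 and Mfap5 are on the interstitial matrix list as well. Basal and myoepithelial markers, whose cells lie on the basement membrane of the mammary duct, were lower for 11 of 11 genes (median −0.18). Without the arrays high in muscle markers 9 of these were lower and 2 higher (median −0.24). Their list mean ran from 8.62 to 8.84 in PyMT/SIRT6 tumours and from 8.76 to 9.23 in PyMT tumours, and it had r = 0.73 with Col4a1. Other list means also had positive r with Col4a1: cartilage 0.70, endothelial 0.62, pericyte and smooth muscle 0.52, and luminal epithelial 0.26. Adipocyte markers had 0.04 and fibroblast markers −0.41. In the basal list Krt15 differed by −0.18 ± 0.05 and Cdh3 by −0.13 ± 0.05. The groups did not overlap for Krt15, a pattern that 0.489% of all features showed. Acta2, on both the basal and the pericyte list, differed by −0.99 ± 0.37. At an unadjusted limma p of 0.05, 4 of the 11 basal genes passed, where 4.45% of all features did, and 0 were called.

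Endothelial markers were lower for 7 of 9 genes (median −0.05, and 0.01 without the arrays high in muscle markers), with Cdh5 at −0.10 ± 0.06. Pericyte and smooth muscle markers were lower for 8 of 11 (median −0.08), and for 6 of 11 without those arrays (median −0.09). Among these, Des at 1.04 ± 0.73 is on the skeletal muscle list as well, and Myh11 at −0.40 ± 0.19 is on the basal list. Adipocyte markers were lower for 4 of 5 (median −0.04, and −0.08 without those arrays). Skeletal muscle markers were higher for 13 of 15 genes (median 1.04, and −0.24 without the 4 arrays), with list means of 7.40 to 11.27 in PyMT/SIRT6 tumours and 7.41 to 11.58 in PyMT tumours. Their list mean had r = 0.43 with Col1a1 and −0.33 with Col4a1. Cartilage markers, the tissue best known for Col2a1, Col9a1, Col9a2 and Col11a2, had 3 tested members of 8, all lower (median −0.11), while without the 4 arrays 2 were higher and 1 lower (median 0.25).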

How the data were processed

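Total RNA of 11 mammary tumours was amplified and read on Illumina WG-6 v2.0 mouse beadchips, per the labels' protocols. The deposited values are linear probe intensities, and for the background treatment and normalization by the authors the sources used here give no description. The arrays' sorted intensities agreed within 1.08%, so no further scaling was applied. Platform annotation gave 34885 of 45281 probes a single symbol, 18 several and 10378 none, and 34807 matched RefSeq (GRCm38.p6), which changed 0 symbols. One probe per gene, that of highest mean, was kept, giving 29453 features. On the log2 scale the lower 50% by mean were left out and 14726 tested.

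Groups came from the genotype labels, and replicate numbers follow accession order and pair nothing. Genotypes were compared by limma 3.58.1 in R 4.3.3 (lmFit, eBayes with trend, no covariate), with Benjamini-Hochberg adjustment over all tested features at 0.05, and single genes also by exact permutation, two-sided, over the 462 splits. The fit was run on simulated data with independent noise for each feature. Such data lack the differences in cell mix that genes share on these arrays, so the run cannot vouch for the fit under them. The 11 gene pairs were tested with 100000 resamples, adjusted over the 11. The collagen classes, partner lists, marker lists and pairs were chosen with earlier results of these data known. Collagens were named as defining members (types I, III, IV and VI), up to 3 more per class by spread within genotype, and the 6 of smallest unadjusted p, and list genes by smallest unadjusted p or as members of a pair. Alternatives were other filters, the mean of a gene's probes, centring, background subtraction, eBayes without trend or robust, array weights, deposit order, muscle, adipocyte or fibroblast covariates, leaving out arrays high in muscle markers, and leaving out each array. The number of arrays limits the precision.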

Additional observations from a re-analysis of the deposited data

How the results depend on the processing

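The count of collagen genes called was 0 under every alternative run, and the lowest adjusted p of any described member (limma) was 0.495. The count of all features called, 2 as reported, was 4 with the mean of a gene's probes, 4 with array weights, 1 with deposit order as a block, 0 without the arrays high in muscle markers, and 1 to 3 with single arrays left out. Members at an unadjusted p of 0.05, 2 as reported, numbered 1 with no filter, 1 with the lower 25% or 75% of features left out, 1 with the mean of probes, 4 with array weights, 1 with deposit order as a block, 1 with the adipocyte or fibroblast covariate, 5 without the arrays high in muscle markers, and 1 to 5 with single arrays left out, where 5 came without PyMT/SIRT6 replicate 2. The fibrillar mean difference of 0.07 was 0.24 with the lower 75% of features left out, which keeps 2 members. With single arrays left out the class differences ran from 0.04 to 0.11 (fibrillar), −0.30 to −0.15 (basement membrane), −0.10 to 0.16 (type VI) and −0.19 to −0.06 (fibril-associated). Gene pairs passing, 4 as reported, numbered 2 with centred arrays, 1 without the arrays high in muscle markers, and 2 to 5 with single arrays left out. Differences near 0 took the other sign: Col1a2 −0.00518 with normexp, −0.0263 with array weights and −0.0162 with the fibroblast covariate (−0.0310 to 0.0522 with arrays left out), Col6a1 −0.0225 with weights, −0.0580 with the muscle and −0.15 with the fibroblast covariate (−0.11 to 0.24), Col6a2 0.00789 with deposit order as a block, 0.00962 with the adipocyte covariate and 0.0876 without muscle-high arrays (−0.0885 to 0.0730), Col9a2 0.00997 with the fibroblast covariate and 0.0341 without muscle-high arrays (−0.31 to 0.0784), Col8a2 −0.0145 with weights (−0.0440 to 0.0705), Col25a1 (−0.0122 to 0.0265) and Col2a1 (−0.00138 to 0.0622). With arrays left out the correlation of Col1a1 with Serpinh1 ran from −0.44 to 0.19, of Col4a1 with Col1a1 from −0.0531 to 0.32 and of Col5a1 with Col5a2 from −0.45 to 0.19. Leaving out fewer or more features changes how many are tested; for the other shifts the cause was not tested. The partner and marker lists without the arrays high in muscle markers, and the class means over members above the olfactory receptor gauge (fibrillar 0.12), were added after seeing the data. No paired analysis was possible because the labels give no replicate numbers shared between the groups.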

Other observations

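Immune, TGF-beta and luminal lists were read in the same tumours, and none of their genes passed the test. Macrophage markers were higher in PyMT/SIRT6 tumours for 9 of 9 tested genes (median 0.17 on the log2 scale), and for 7 of 9 without the 4 arrays high in muscle markers (median 0.06), with Ms4a7 at 0.32 ± 0.14 (SE), and their list mean had r = −0.67 with Col4a1 over the 11 tumours. T and NK cell markers were higher for 5 of 5 (median 0.12, and 0.15 without those arrays), with Nkg7, a cytotoxic granule protein, at 0.29 ± 0.11, Cd3d at 0.26 ± 0.12 and Cd2 at 0.10 ± 0.03. Of 8 TGF-beta responsive genes 2 were higher and 6 lower (median −0.12, and −0.06 without those arrays), with Ltbp1, which anchors latent TGF-beta in the matrix, at −0.20 ± 0.08. Luminal epithelial markers were lower for 6 of 7 (median −0.09), but without those arrays 4 were higher and 3 lower (median 0.13). In each of these lists 0 genes were called, and every adjusted p named here was 0.983 (limma).

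Among the described members and the class means, 0 of 60 groups of tumours held a tumour far enough from the others to pass Dixon's criterion.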
